A study of Homo sapiens with 4 samples.

Results

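The protein-coding genes of human chromosome 20 were examined in 4 RNA-seq libraries of cells labelled MKN-45, an established gastric cancer line. Of 58735 genes in each deposited table, 543 were protein-coding genes placed on chromosome 20, and 522 of these were kept. The other 21 were left out by name: cell-cycle, apoptosis, matrix and developmental genes set aside beforehand, and names beginning MMP, ADAM, COL, DNAJ, RPL or RPS. The chromosome was selected on the measured expression difference there between the libraries numbered 2 in their titles and those numbered 1, so values of that comparison are a description and support nothing. The arms were divided at position 28000000 (GRCh38), which left 182 genes on the short arm and 340 on the long arm. The question was whether the difference covered the short arm, the long arm or both.

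There were 2 libraries of cells infected with a lentivirus meant to overexpress SIX2 and 2 of cells infected with a control lentivirus, all kept under puromycin to select stably infected cells. Each group holds 1 library numbered 1 and 1 numbered 2. The labels name no promoter for the virus, no clone and no meaning for the number, and do not say whether replicates were grown apart. A p-value here therefore speaks of the scatter of 4 libraries, which may be technical. The protocol text speaks of triplicates, while 4 libraries were analysed here.

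Chromosome 20 is one of the smaller human chromosomes, and its centromere parts a short arm (20p) from a gene-rich long arm (20q). The long arm carries regulators of growth, transcription and RNA handling, among them the tyrosine kinase gene SRC, the coactivator gene NCOA3 and the zinc finger gene ZNF217. Extra copies of 20q are common in gastric and colorectal carcinomas, and 20q genes are therefore often followed as a block. The chromosome also holds tandem gene families with many members that are silent in most tissues. Among them are beta-defensins on both arms, cystatins on the short arm and BPI fold genes on the long arm. DNA was not measured in these libraries.

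Totals ranged from 14792869 to 16777792 counts per library. The libraries stood apart by number rather than by group. SIX2 itself did not follow the group label, with 605 and 379 counts in the SIX2-labelled libraries numbered 2 and 1, against 597 and 369 counts in the controls numbered 2 and 1. Of 7 epithelial markers 6 reached 1 CPM (counts per 1000000 of the TMM-scaled library) in every library, KRT19 was at most 0.134 CPM, and the blood cell markers PTPRC and CD3E had 0 counts in all 4 libraries.

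Promoter sequences of 4 genes show what kind of start site lies at the points the results turn on: the last tested short-arm gene (ZNF337), a gene at the start of the long arm (ID1), the tested long-arm gene with the lowest log2 difference (NTSR1), and a long-arm gene that went the other way (TSHZ2). Each run is the 150 bases before the RefSeq start (GRCh38.p14), written 5′ to 3′ on the gene's strand. Capitals mark GGGCGG or its reverse complement CCGCCC, the core of the GC box.
ZNF337: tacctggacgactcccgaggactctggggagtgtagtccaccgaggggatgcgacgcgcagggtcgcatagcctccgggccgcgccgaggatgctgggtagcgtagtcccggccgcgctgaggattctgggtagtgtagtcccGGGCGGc
ID1: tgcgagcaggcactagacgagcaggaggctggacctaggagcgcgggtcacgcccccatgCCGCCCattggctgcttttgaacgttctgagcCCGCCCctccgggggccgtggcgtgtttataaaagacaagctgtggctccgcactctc
NTSR1: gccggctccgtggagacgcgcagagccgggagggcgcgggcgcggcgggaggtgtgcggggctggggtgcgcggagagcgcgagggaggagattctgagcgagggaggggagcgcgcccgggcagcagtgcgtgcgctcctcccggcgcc
TSHZ2: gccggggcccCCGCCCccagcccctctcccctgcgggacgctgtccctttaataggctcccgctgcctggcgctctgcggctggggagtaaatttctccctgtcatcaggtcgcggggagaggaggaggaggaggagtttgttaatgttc
The ZNF337 stretch is chr20:25696854-25697003 on the minus strand, with 1 GC box and 17 CG dinucleotides. ID1 (chr20:31605139-31605288, plus strand) holds 2 GC boxes and 12 CG dinucleotides. NTSR1 (chr20:62708686-62708835, plus strand) holds 0 GC boxes in this stretch and 23 CG dinucleotides, while TSHZ2 (chr20:52972208-52972357, plus strand) holds 1 and 9. CG dinucleotides were present in all 4 stretches.

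Of the 522 genes, 364 had an entry among the RefSeq promoters, and 255 of the 334 tested ones. The GC box GGGCGG, read on both strands in the 250 bases before the start, was present in 67.8% of 174 long-arm promoters of tested genes, 66.7% of 81 short-arm ones and 42.6% of all 35116 promoters listed. The TATA box letters TATAAA, also on both strands and not overlapping that motif, were in 6.90% of long-arm, 1.23% of short-arm and 10.7% of all promoters. Over the 364 genes with an entry, tested or not, GGGCGG was in 55.5% and TATAAA in 8.24%. The set of all promoters was not limited to tested genes, so it is unlike the sets of the arms. Within the long arm, GGGCGG was in 72.0% of 107 promoters of genes past the threshold as lower in number 2, in 62.5% of 8 promoters of genes past it as higher and in 61.0% of 59 promoters of genes not past it in either direction. The median number of CG dinucleotides in the 250 bases was 25, 9.5 and 23 in these 3 sets. A match is a description of letters and not of binding.

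The difference between title numbers lay on the long arm. After removal of genes with too few counts, 334 of the 522 genes were tested, 107 on the short arm and 227 on the long arm. The median log2 difference (number 2 minus number 1, from an edgeR fit over 16343 genes) was -0.50 over the long-arm genes and 0.01 over the short-arm genes. A median of -0.50 is a level in number 2 that is 0.707 of the level in number 1. Over all tested genes the median was 0.01, and over 12150 tested protein-coding genes of the other autosomes it was also 0.01.

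Over both arms 157 of the 334 genes passed the threshold (adjusted p of 0.05) as lower in number 2, 34 as higher and 143 not at all, where 43.8% of all tested genes passed in either direction. Of the long-arm genes, 139 passed as lower in number 2 and 13 as higher, against 21.6% lower and 22.2% higher among all tested genes. As shares of the 227 tested, these were 61.2% and 5.73%. On the short arm 18 of 107 passed as lower (16.8%) and 21 as higher (19.6%). Differences below 0 were found for 189 of 227 long-arm genes and for 53 of 107 short-arm genes. Both libraries numbered 2 lay below both libraries numbered 1 for 169 long-arm and 29 short-arm genes, and above them for 25 and 37, where such separation held for 36.2% (lower) and 36.1% (higher) of all tested genes. Since these values chose the chromosome, nothing is read from the counts.

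**Figure D1:**
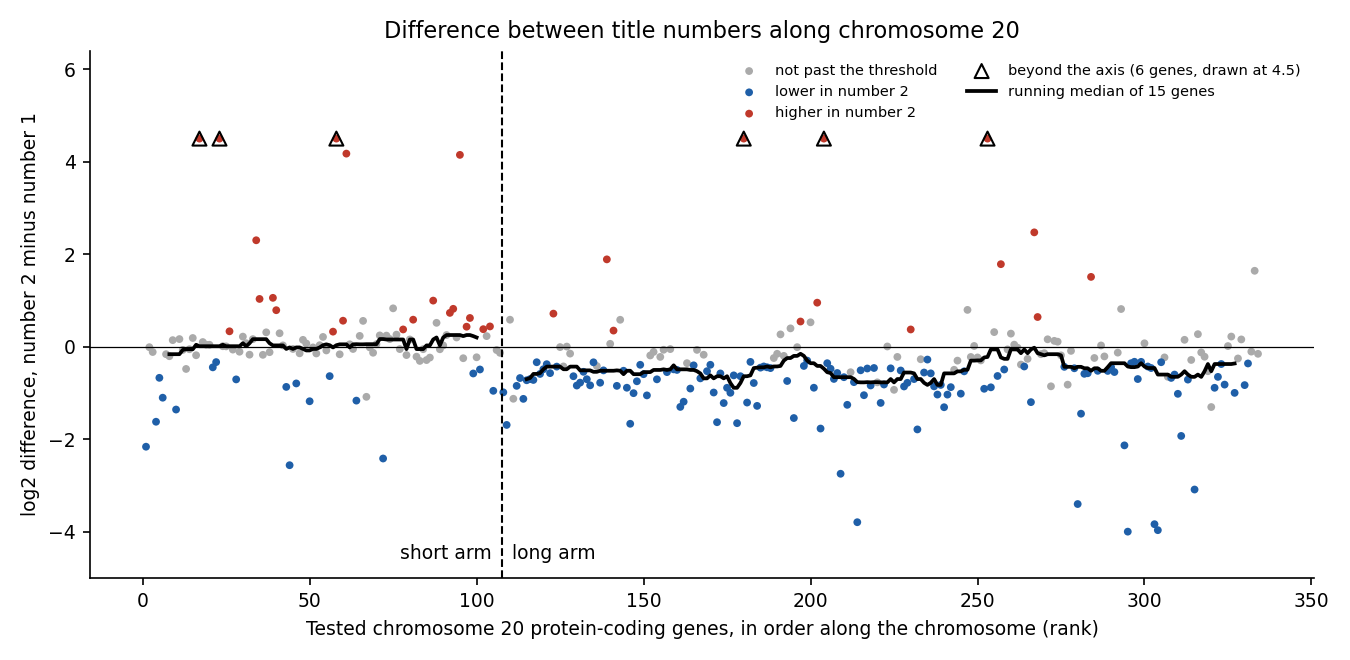
Log2 difference of each of 334 tested genes (number 2 minus number 1, 2 libraries each) in order along chromosome 20, with a dashed line between the arms, a running median of 15 genes per arm in black, and 6 genes above the axis limit drawn at 4.5. The running median stays near 0 on the short arm and below 0 along the long arm.

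The differences that chose the chromosome are given here in ranges, and the shape of their distribution was not tested. At -1 or lower were 15.9% of long-arm, 8.41% of short-arm and 8.35% of all tested genes. At 1 or higher were 3.52%, 7.48% and 9.84%. On the long arm 36 genes were at a log2 difference of -1 or lower, 78 between -1 and -0.5, and 75 between -0.5 and 0. The short arm had 9, 7 and 37 genes in the same ranges. Above 0 the long arm had 21 genes up to 0.5, 9 up to 1 and 8 beyond, and the short arm 36, 10 and 8. The 25th and 75th percentiles of long-arm differences were -0.83 and -0.19, and those of the short arm -0.20 and 0.26.

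Summed over all 340 long-arm genes, tested or not, levels were 15910 and 15300 CPM in the SIX2-labelled and control libraries numbered 2, against 21530 and 21540 CPM in those numbered 1. The 182 short-arm genes summed to 4754 and 4534 CPM in number 2, against 4734 and 4738 CPM in number 1. The long-arm sums of the numbers did not overlap, while on the short arm the SIX2-labelled library numbered 2 was the highest and the control numbered 2 the lowest. In bulk RNA, fewer cells of one kind and less RNA per cell cannot be told apart.

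Cut into 5-Mb segments, every long-arm segment had a median below 0, but not to the same extent. The segments from 30 to 35 and from 35 to 40 Mb had medians of -0.56 (36 genes) and -0.61 (40 genes), with 24 and 31 genes past the threshold as lower. From 40 to 45 Mb the median was -0.42 over 25 genes. The lowest segment was 45 to 50 Mb, with -0.78 over 34 genes, 27 of them past the threshold as lower and 1 as higher. From 50 to 55 and 55 to 60 Mb the medians were closer to 0, at -0.30 (17 genes) and -0.23 (24 genes), and from 60 Mb to the end it was -0.38 (51 genes). Among all tested genes 21.6% passed as lower and 22.2% as higher. Differences between segments were not tested.

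Short-arm segments scattered around 0. Their medians were -0.06 from 0 to 5 Mb (47 genes), 0.03 from 5 to 10 Mb (13 genes), 0.02 from 10 to 15 Mb (12 genes) and 0.16 from 15 to 20 Mb (17 genes). From 20 to 25 Mb the median was 0.25 over 11 genes, of which 5 passed the threshold as higher and 1 as lower. The last segment before the centromere had -0.07 over 7 genes, of which 2 passed as lower and 2 as higher. Its median was thus not at the long-arm level, but it rests on few genes.

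**Figure D2:**
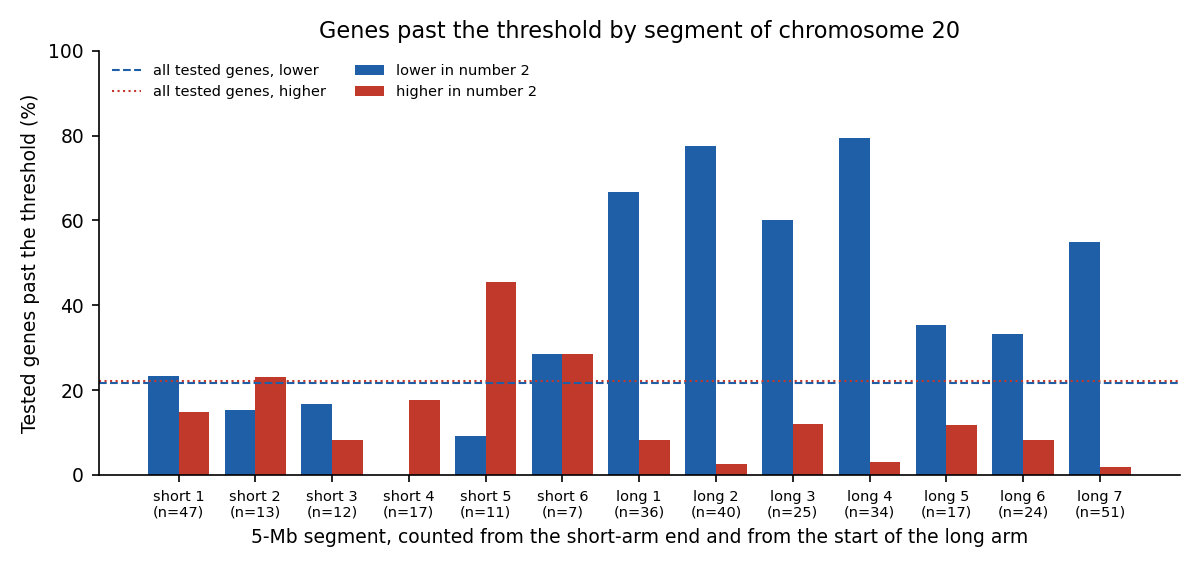
Share of tested genes past the threshold (percent) in each 5-Mb segment, as lower (blue) or higher (red) in number 2 than in number 1, with n tested genes and the shares over all tested genes as horizontal lines. Every long-arm segment stands above the 21.6% line for lower genes, from 33.3% to 79.4%, and among the short-arm segments only the first and the sixth do.

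Runs of genes in one direction were longer on the long arm, where 189 of 227 genes were below 0. Long runs follow from such a share alone, and whether neighbours moved together was not tested. The longest run of consecutive tested genes with a difference below 0 was 36 genes on the long arm, from TRPC4AP to RALGAPB (35002404 to 38578861, GRCh38), and 8 genes on the short arm. In windows of 15 consecutive tested genes the median was below 0 in 213 of 213 long-arm windows and in 25 of 93 short-arm windows. Successive windows share most of their genes, so these are not separate observations. The lowest long-arm window had -0.89, and the highest, from FAM210B to GNAS, had -0.02. Short-arm windows ran from -0.16 (C20orf96 to FKBP1A) to 0.25 (POLR3F to NAPB).

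The difference was of like size in both groups. On the log2(CPM + 0.5) scale, the long-arm median of number 2 minus number 1 was -0.47 between the SIX2-labelled libraries and -0.49 between the controls. The short-arm medians were 0.04 and -0.01. From 45 to 50 Mb the long-arm medians were -0.74 and -0.82, and from 55 to 60 Mb they were -0.16 and -0.32. Both pairs were below 0 for 173 of 227 long-arm genes and above 0 for 28. Among all 16343 tested genes these were 6413 and 6405. The pair differences are part of the comparison that chose the chromosome, so their likeness is no replication.

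**Figure D3:**
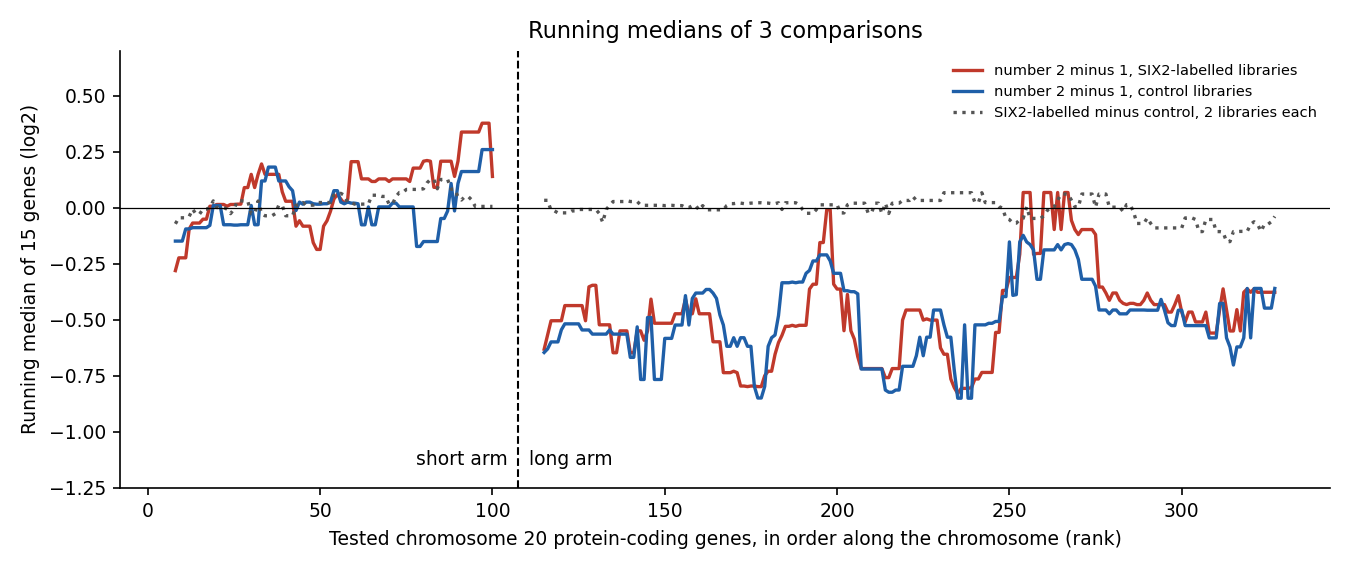
Running medians of 15 tested genes along chromosome 20 (log2) for number 2 minus 1 within the SIX2-labelled libraries (red), within the controls (blue), and for SIX2-labelled minus control over 2 libraries each (dotted). The red and blue lines run below 0 on most of the long arm, with the red line reaching just above 0 in a few windows, and the dotted line stays near 0 on both arms.

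Among the chromosomes, 20 had the lowest median. Over all 351 tested protein-coding genes of chromosome 20, the genes left out by name included, the median was -0.34. The next lowest were chromosome 18 at -0.24 (177 genes) and chromosome 13 at -0.23 (206 genes). At the other end chromosome 14 had 0.51 (412 genes) and X had 0.38 (434 genes). The long arm alone, at -0.50, was about as far from 0 as the whole of chromosome 14 on the opposite side. The short arm sat among the chromosomes with medians near 0. Other chromosomes were not split, so their single arms cannot be ranked against the long arm of 20.

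**Figure D4:**
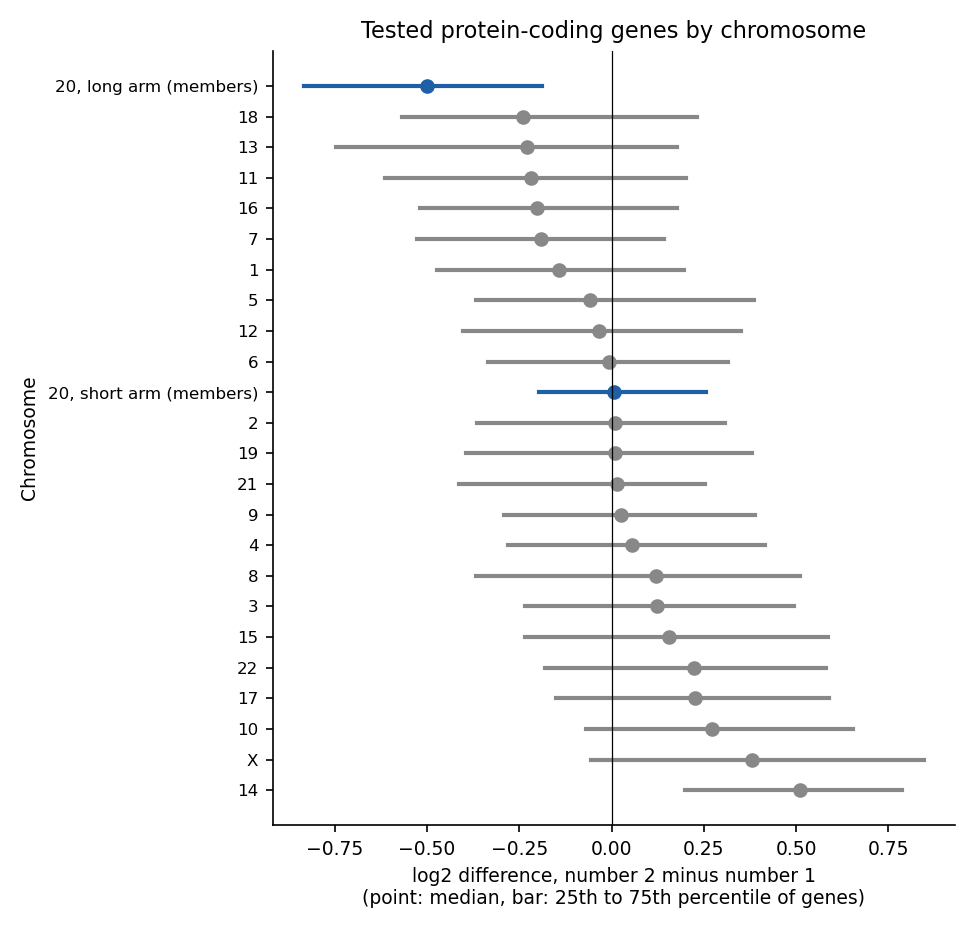
Median (point) and 25th to 75th percentile (bar) of the log2 difference, number 2 minus number 1, over tested protein-coding genes of each chromosome, with chromosome 20 split into its arms (blue, the genes kept here). Among the sets drawn, the long arm of 20 is lowest at -0.50 and chromosome 14 highest at 0.51, with the short arm of 20 at 0.01. Other chromosomes are not split into arms.

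The 2 tested genes on each side of the centromere, named by position, do not place a step there. NINL, the tested short-arm gene before them and outside the naming rule, passed as lower (log2 difference -0.96). It had 7.99 and 8.37 CPM in the SIX2-labelled and control libraries numbered 2, against 16.6 and 15.1 CPM in those numbered 1. The last tested short-arm genes, NANP (25612935 to 25624175) and ZNF337 (25674215 to 25696841), were at like levels in both numbers. NANP, a sialic acid pathway phosphatase, had 15.5 and 19.02 CPM in the SIX2-labelled and control libraries numbered 2, against 18.9 and 17.4 CPM in those numbered 1. ZNF337, a zinc finger gene, had 2.73 and 3.83 CPM in number 2, against 4.37 and 2.81 CPM in number 1. The numbers overlap for both genes. The first tested long-arm genes were HM13 (31514410 to 31577923) and ID1 (31605283 to 31606515), whose promoter is shown above. HM13, the signal peptide peptidase, had 152 and 135 CPM in the SIX2-labelled and control libraries numbered 2, against 289 and 280.1 CPM in those numbered 1. ID1, an inhibitor of basic helix-loop-helix factors, had 114 and 79.7 CPM in number 2, against 306 and 319.7 CPM in number 1. For both long-arm genes the libraries numbered 2 were well below those numbered 1, with log2 differences of -0.99 and -1.69.

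Transcription and chromatin genes of the long arm were mostly lower in number 2. Of 25 tested long-arm members of the list, 17 passed as lower and 1, ZMYND8, as higher, with a median of -0.49. Over the whole long arm 61.2% passed as lower and 5.73% as higher, and over all tested genes 21.6% and 22.2%. The count is therefore not read as a trait of this list. The 5 short-arm members had 0 lower and 1 higher, with a median of -0.12. PLAGL2, a zinc finger factor, had 32.1 and 43.0 CPM in the SIX2-labelled and control libraries numbered 2, against 83.9 and 80.5 CPM in those numbered 1. CEBPB, a bZIP factor of acute-phase and inflammatory genes, had 120.3 and 100.5 CPM in number 2, against 201 and 246 CPM in number 1. In both genes the numbers were apart, with differences of -1.13 and -1.02, as in ID1.

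Signalling genes included the kinase SRC and its relatives. On the long arm 8 of 10 tested members passed as lower and 0 as higher (median -0.56), and on the short arm 4 of 11 as lower and 3 as higher (median -0.17), beside 21.6% lower and 22.2% higher among all tested genes. The arms were not tested against each other for this or any other list. SRC had 12.04 and 14.4 CPM in the SIX2-labelled and control libraries numbered 2, against 40.5 and 41.5 CPM in those numbered 1, a log2 difference of -1.63. The SRC-like kinase genes PTK6 and SRMS, neighbours of each other but not of SRC, were also lower. PTK6 had 44.3 and 39.2 CPM in number 2, against 79.8 and 89.6 CPM in number 1. SRMS, of low level, had 3.49 and 4.13 CPM in number 2, against 13.1 and 16.1 CPM in number 1.

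Metabolic and transport genes had members in both directions on both arms. Of 14 long-arm members 8 passed as lower and 2 as higher (median -0.45), and of 13 short-arm members 4 as lower and 1 as higher (median 0.05), beside the same 21.6% and 22.2% of all tested genes. CTSA, the lysosomal protective protein, had 133 and 114 CPM in the SIX2-labelled and control libraries numbered 2, against 284 and 289 CPM in those numbered 1 (log2 difference -1.22). GSS, glutathione synthetase, had 71.3 and 65.9 CPM in number 2, against 123 and 124 CPM in number 1 (-0.85). On the short arm SMOX, spermine oxidase, had 12.4 and 7.78 CPM in number 2, against 59 and 59.8 CPM in number 1 (-2.56). Its drop was larger than the long-arm median, so single short-arm genes also differed strongly.

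Genes of RNA and protein handling are described next. Of 19 long-arm members 13 passed as lower and 0 as higher, with a median of -0.55. The whole long arm had 61.2% lower and 5.73% higher, and all tested genes 21.6% and 22.2%. Of 16 short-arm members 1, NOP56, passed as lower and 1, SNX5, as higher, with a median of -0.02. SYS1, a Golgi protein, had 15.3 and 15.1 CPM in the SIX2-labelled and control libraries numbered 2, against 36.5 and 36.1 CPM in those numbered 1 (log2 difference -1.26). ZNFX1, a helicase that senses viral RNA, had 159 and 127 CPM in number 2, against 297 and 288 CPM in number 1 (-1.04). DDX27, an RNA helicase of ribosome assembly, had 81.0 and 77.9 CPM in number 2, against 138 and 150.1 CPM in number 1 (-0.86). ZNFX1 and DDX27 overlap at their ends on opposite strands, so reads there cannot be assigned without strand.

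Replication and division genes were few. On the long arm 6 of 8 tested members passed as lower and 0 as higher (median -0.39), and on the short arm 1 of 5 as lower and 2 as higher (median 0.24), beside 21.6% lower and 22.2% higher among all tested genes. TTI1, a cofactor in the maturation of the large checkpoint kinases, had 52.6 and 59.1 CPM in the SIX2-labelled and control libraries numbered 2, against 116 and 107 CPM in those numbered 1. KIF3B, a kinesin motor subunit, had 66.6 and 77.6 CPM in number 2, against 121 and 113 CPM in number 1. CDC25B, a short-arm gene for a phosphatase that activates cyclin-dependent kinases, went the other way, with 289 and 252 CPM in number 2, against 132 and 128 CPM in number 1 (log2 difference 1.06).

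Of 21 long-arm genes listed because their region is gained in many carcinomas, 19 were tested. Of these 16 passed as lower in number 2 and 0 as higher, with a median of -0.68. The whole long arm had 61.2% lower and 5.73% higher, and all tested genes 21.6% and 22.2%. HM13, ID1 and SRC, described above, belong to that list. CYP24A1 and BCAS1 were below the count filter, with 27 and 1 counts over the 4 libraries. MYBL2, a cell-cycle transcription factor, had 212 and 194 CPM in the SIX2-labelled and control libraries numbered 2, against 336 and 344 CPM in those numbered 1, and NCOA3 had 58.3 and 75.5 CPM in number 2, against 114 and 104 CPM in number 1. Both were chosen for mention after their values were seen. The list was drawn up with results of these libraries known, so its direction is no independent evidence.

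The 4 genes imprinted in some tissues, all on the long arm, were divided, with 2 past the threshold as lower and 0 as higher. Among all tested long-arm genes 61.2% passed as lower and 5.73% as higher, and among all tested genes 21.6% and 22.2%. The division is therefore not read as a trait of this list. BLCAP had 92.4 and 88.0 CPM in the SIX2-labelled and control libraries numbered 2, against 134 and 135 CPM in those numbered 1. NNAT, neuronatin, which lies within BLCAP on the other strand, had 1.52 and 2.21 CPM in number 2, against 3.88 and 4.88 CPM in number 1. Both passed as lower, NNAT not without control replicate 1 (log2 difference -1.06). GNAS, the stimulatory G protein subunit and the long-arm gene with the most counts, had 1447 and 1281 CPM in number 2, against 1309 and 1224 CPM in number 1. L3MBTL1, a chromatin reader, had 26.2 and 31.5 CPM in number 2, against 23.7 and 24.3 CPM in number 1. Neither GNAS nor L3MBTL1 passed the threshold with all libraries, but GNAS passed as higher without control replicate 2 (0.21) and L3MBTL1 without SIX2-labelled replicate 2 (0.39).

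The 3 tested genes of the WFDC cluster, which encode inhibitors of secreted proteases at 45 Mb, all passed as lower in number 2. So did 61.2% of all tested long-arm genes and 21.6% of all tested genes. PI3, the elastase inhibitor elafin, had 4.75 and 4.96 CPM in the SIX2-labelled and control libraries numbered 2, against 32.1 and 33.4 CPM in those numbered 1 (log2 difference -2.75). SLPI, a secretory inhibitor of leukocyte proteases, had 145 and 92.1 CPM in number 2, against 190.2 and 185 CPM in number 1 (-0.66). WFDC3 was near the detection limit, with 1 count in each library numbered 2, against 14 and 16 counts in those numbered 1. SLPI did not pass with DESeq2 (log2 difference -0.65).

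**Figure D5:**
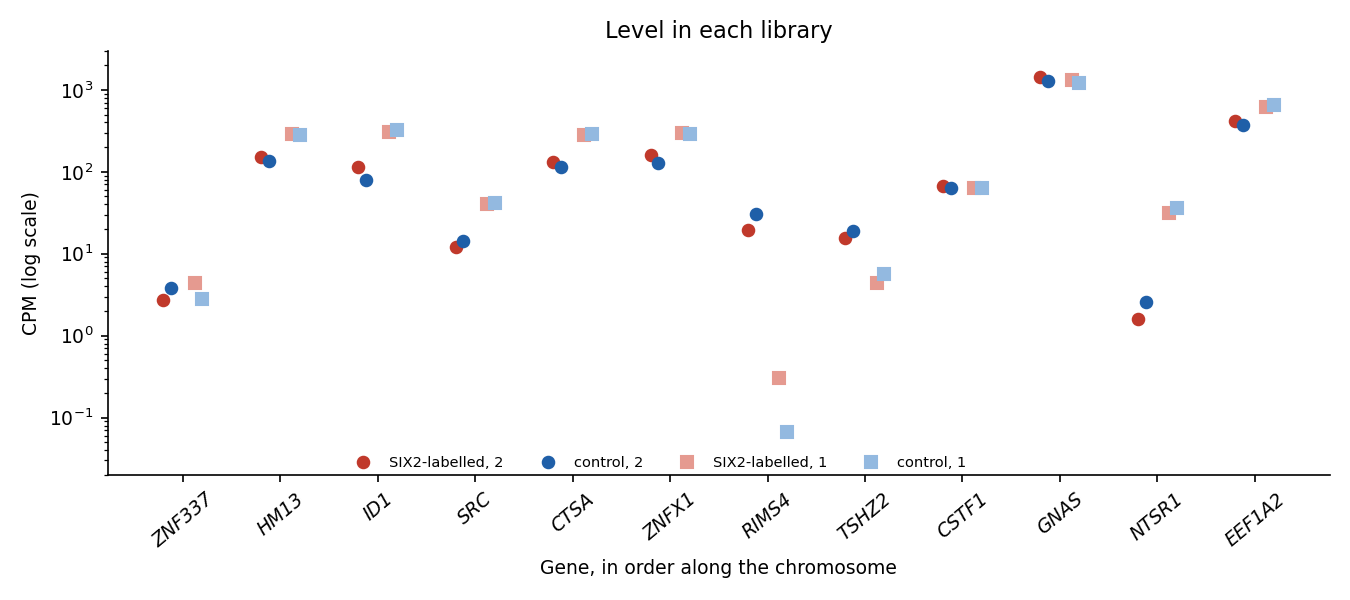
Level of 12 genes in each library (CPM, log scale), in order along the chromosome, with libraries numbered 2 as circles and numbered 1 as squares, SIX2-labelled in red and control in blue. HM13, ID1, SRC, CTSA, ZNFX1, NTSR1 and EEF1A2 are lower in both libraries numbered 2, RIMS4 and TSHZ2 are higher there, and ZNF337, CSTF1 and GNAS lie close together.

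Among genes with a mean of 5 CPM or more, the largest long-arm decreases lay mostly near the end of the arm. NTSR1 (62708837 to 62762771), the neurotensin receptor, had 1.59 and 2.57 CPM in the SIX2-labelled and control libraries numbered 2, against 31.4 and 35.8 CPM in those numbered 1 (log2 difference -4.00). BIRC7 (63235883 on), an inhibitor of apoptosis known as livin, had 1.01 and 0.957 CPM in number 2, against 15.2 and 13.2 CPM in number 1 (-3.84). STMN3 (63639705 on), of the stathmin family of tubulin-binding proteins, had 2.92 and 0.538 CPM in number 2, against 16.3 and 12.8 CPM in number 1 (-3.09). Named decreases were chosen among genes whose numbers did not overlap, so the separation in these 3 genes is no finding. SLCO4A1, an organic anion transporter next to NTSR1, had 42.3 and 48.7 CPM in number 2, against 195 and 205 CPM in number 1 (-2.14). PI3 completes the 5 largest named decreases.

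Against this background 13 long-arm genes were higher in number 2. The largest named increase was RIMS4 (44751808 to 44810338), of a family of presynaptic scaffold proteins, with 19.4 and 30.3 CPM in the SIX2-labelled and control libraries numbered 2, against 0.304 and 0.0668 CPM in those numbered 1, which are 5 and 1 counts. TP53INP2, an autophagy protein, had 11.9 and 13.5 CPM in number 2, against 2.55 and 4.34 CPM in number 1 (log2 difference 1.89). TSHZ2, a zinc finger factor whose promoter is shown above, had 15.8 and 18.7 CPM in number 2, against 4.37 and 5.68 CPM in number 1 (1.78). These 3 were scattered over the arm rather than adjacent. WISP2, a secreted matricellular protein, had 220.2 and 189 CPM in number 2, against 104 and 108 CPM in number 1 (0.95). WISP2 and RIMS4 are close neighbours.

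The long-arm genes with the most counts, after GNAS, were lower in number 2 by amounts on either side of the arm's median. RPN2, a subunit of the oligosaccharyltransferase, had 516 and 444 CPM in the SIX2-labelled and control libraries numbered 2, against 641 and 619 CPM in those numbered 1 (log2 difference -0.39), a call lost without control replicate 1 (-0.42) or SIX2-labelled replicate 1 (-0.38). EEF1A2, an elongation factor of translation, had 414 and 375 CPM in number 2, against 611 and 649.7 CPM in number 1 (-0.68). Per kilobase of the length given in the tables, mean levels over the 4 libraries were 197 CPM for RPN2, 104 CPM for EEF1A2, 98.7 CPM for GNAS, 166 CPM for ID1 and 257 CPM for SLPI. CSTF1, a cleavage factor for polyadenylation, lay in the stretch with medians near 0 and had 66.4 and 63.8 CPM in number 2, against 63.3 and 63.0 CPM in number 1.

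Short-arm genes differed strongly one by one without a common direction. The largest named decreases were SMOX, given above, and FLRT3 (14322988 on), a membrane protein of cell adhesion, with 4.63 and 5.92 CPM in the SIX2-labelled and control libraries numbered 2, against 29.9 and 26.7 CPM in those numbered 1 (log2 difference -2.42). NRSN2, a vesicle membrane protein, had 11.4 and 11.2 CPM in number 2, against 33.6 and 36.1 CPM in number 1 (-1.62). SLC52A3, a riboflavin transporter, had 2.92 and 3.23 CPM in number 2, against 7.41 and 8.42 CPM in number 1 (-1.36), and GPCPD1, a glycerophosphocholine phosphodiesterase, 12.7 and 10.8 CPM against 26.8 and 26.6 CPM (-1.18).

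In the other direction, SNAP25 (10218830 to 10307418), a SNARE protein of synaptic vesicle fusion, had 15.2 and 13.9 CPM in the SIX2-labelled and control libraries numbered 2, against 0.668 and 0.935 CPM in those numbered 1 (log2 difference 4.18). C20orf194 had 9.13 and 9.09 CPM in number 2, against 1.94 and 1.74 CPM in number 1 (2.30). ATRN, attractin, had 54.5 and 62.1 CPM in number 2, against 31.2 and 25.8 CPM in number 1 (1.03), and SMIM26, a small membrane protein, 15.6 and 10.8 CPM against 6.13 and 7.08 CPM (1.00). With CDC25B these are the 5 largest short-arm increases among genes with a mean of 5 CPM or more, of which C20orf194, ATRN and CDC25B lie close together. SIRPA, a receptor for CD47 with near-identical relatives that make its count uncertain, had 7.48 and 7.78 CPM in number 2, against 0.304 and 0.200 CPM in number 1, a larger difference (4.87) at a lower mean.

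The 3 short-arm genes with the highest mean CPM differed by less than 0.5 on the log2 scale, with libraries of the numbers not overlapping. DSTN, the actin-severing protein destrin, had 313 and 266 CPM in the SIX2-labelled and control libraries numbered 2, against 248 and 236 CPM in those numbered 1, and BTBD3 had 254 and 253 CPM in number 2, against 218 and 213 CPM in number 1. Neither passed the threshold with all libraries. DSTN passed as higher without control replicate 2 (0.39), and BTBD3 without control replicate 2 (0.25) or SIX2-labelled replicate 2 (0.23). NOP56, a core protein of box C/D small nucleolar particles, did pass as lower, with 189.8 and 191 CPM in number 2, against 256 and 264 CPM in number 1 (log2 difference -0.45). Its call was lost without control replicate 1 (-0.43) or SIX2-labelled replicate 1 (-0.48). CST3, the secreted protease inhibitor cystatin C, had 102 and 83.4 CPM in number 2, against 134 and 143 CPM in number 1 (-0.58).

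The long-arm shift was present at all levels. The median log2 difference was -0.50 for 47 long-arm genes with a mean under 10 CPM, -0.47 for 68 genes from 10 to 50 CPM and -0.52 for 112 genes at 50 CPM or more. Among the last, 82 passed as lower and 2 as higher, beside 26.8% and 24.7% of all tested protein-coding genes at that level. The spread was wider at low level, where the 25th and 75th percentiles were -0.91 and 0.33, against -0.72 and -0.26 at 50 CPM or more. Short-arm medians were 0.16, -0.0028 and -0.05 in the same classes. By length, 24 long-arm genes under 2000 bases had a median of -0.84, 104 genes from 2000 to 5000 bases -0.48 and 99 longer genes -0.45, while all tested protein-coding genes of those lengths had medians of 0.02, 0.00 and 0.02.

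Genes on chromosome 20 that do not code for protein are not members and serve as a side measure in the same libraries. Of 68 tested non-coding genes and pseudogenes on the long arm, 22 passed as lower and 2 as higher, with a median of -0.51. These are 32.4% and 2.94%, beside 21.6% and 22.2% of all tested genes. The 19 on the short arm had 0 lower and 3 higher, with a median of 0.31 over mostly low counts. Many overlap coding genes, and the strand setting of the counting is not given, so their reads are not separate evidence. Among the tested coding genes 165 of 334 were overlapped by a gene on the other strand. Over the 114 long-arm genes free of such overlap the median was -0.49.

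The tandem families were mostly silent. Of 13 beta-defensin genes 12 had 0 counts in all 4 libraries, of 10 BPI fold genes 7, and of 18 genes of the WFDC and semenogelin cluster 12. Among 12 genes with names beginning CST, 9 had 0 counts and 2 were tested, CST3 and CSTF1, the second of which is not a cystatin. In all, 188 genes were below the filter, 75 on the short arm and 113 on the long arm, and 51 short-arm and 56 long-arm genes had 0 counts throughout. The medians and counts above hold only for genes that passed the filter.

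Markers of other cell types that lie on chromosome 20 gave low values. CD93 (endothelial) and SIRPG (T cells) had 0 counts. The 3 endothelial markers, THBD, PROCR and CD93, summed to 15.2 and 13.8 CPM in the SIX2-labelled and control libraries numbered 2, against 30.0 and 29.4 CPM in those numbered 1. Within that sum PROCR had 10.2 and 8.31 CPM in number 2, against 29.6 and 29.2 CPM in number 1, while THBD went the other way, with 4.94 and 5.44 CPM in number 2, against 0.364 and 0.200 CPM in number 1. The 3 neuronal markers, SNAP25, CHGB and NNAT, summed to 16.7 and 16.1 CPM in number 2, against 4.55 and 5.81 CPM in number 1. SNAP25 made up most of the sum in number 2 and NNAT most of it in number 1, and CHGB had 0 counts. Their part in the differences above was not tested.

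Between the groups, which the choice of chromosome did not use, no gene of chromosome 20 changed detectably. Of the 334 tested genes 0 passed the threshold when the SIX2-labelled libraries were set against the controls (edgeR, quasi-likelihood), and 0 had an unadjusted p under 0.05. Over all 16343 tested genes these were 0 (0%) and 12 (0.0734%). DESeq2 also called 0 of the genes, with 0 at an unadjusted p under 0.05. The median log2 fold change was 0.02 on the short arm and -0.0040 on the long arm, and single genes ran from -0.78 to 0.63. The spread behind this test includes the difference between numbers, which limits what it can detect.

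The genes with the smallest p between groups are given as values. PFDN4, a subunit of the prefoldin chaperone, had 46.3 and 40.4 CPM in the SIX2-labelled libraries numbered 2 and 1, against 28.8 and 37.8 CPM in the controls numbered 2 and 1 (log2 fold change 0.38, SE 0.25, adjusted p = 1.00, edgeR quasi-likelihood test). GCNT7, a glycosyltransferase gene, had 0.697 and 1.15 CPM in the SIX2-labelled libraries, against 1.44 and 1.67 CPM in the controls (-0.74, SE 0.57, adjusted p = 1.00, edgeR). GGT7, of the gamma-glutamyltransferase family, had 9.38 and 9.53 CPM in the SIX2-labelled libraries, against 7.60 and 6.68 CPM in the controls (0.41, SE 0.32, adjusted p = 1.00, edgeR). In each of these genes both SIX2-labelled libraries lay on one side of both controls. The genes were picked for the smallest p, which favours such separation, so nothing is read from it.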

How the data were processed

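Gene counts were deposited by the authors as whole numbers for each library, not normalised, with a gene length in bases beside them. Coordinates in the deposited tables are those of GRCh38, although the submitters' processing notes name mm9. Which aligner, counter and strand setting were used is not given in the sources used here. Genes with low counts were removed with edgeR's filterByExpr, and libraries were scaled by TMM (edgeR 4.0.16, R 4.3.3). Quasi-likelihood tests over all 16343 genes left, with Benjamini-Hochberg adjustment and a threshold of 0.05, were fitted with title number as the only term or group as the only term. Levels are counts per 1000000 (CPM) after this scaling, and pairwise differences used log2(CPM + 0.5). The gene set and lists were chosen with earlier results of these data known.

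Genes named are, per arm, the 5 largest differences in each direction and the 3 genes of highest CPM. The 5 largest were taken among genes past the threshold at a mean of 5 CPM or more, with no overlap between numbers. Up to 3 per list, 2 on each side of the centromere and 3 for the group comparison were also named. Genes outside this rule are said to be so or serve as markers. A gene that the rule names is not reported here. Promoters and their starts came from RefSeq (GRCh38.p14), with 317 starts within 500 bases of those in the tables. The scripts were tested on simulated data. Alternatives were DESeq2 1.42.0, its size factors, no filter, a level minimum, medians relative to the other autosomes, the other factor as a term, and each library left out. Genes free of overlap on the other strand were an alternative added after seeing the data. Totals of 14792869 to 16777792 counts set the precision, and counting error only is covered by counts near 0.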

Additional observations from a re-analysis of the deposited data

Results flagged for a closer look

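The difference between numbers went opposite ways in the 2 groups for 4 named genes, on the log2(CPM + 0.5) scale as number 2 minus number 1. ZNF337 differed by -0.59 between SIX2-labelled libraries and by 0.39 between controls, and NANP by -0.28 and 0.12. PFDN4 differed by 0.20 between SIX2-labelled libraries and by -0.39 between controls, and GGT7 by -0.021 and 0.17. The short-arm median was 0.038 between SIX2-labelled libraries and -0.013 between controls. The long-arm median of SIX2-labelled minus control libraries was 0.036 within number 2 and -0.021 within number 1. Each of these rests on 1 library per side, and the difference was not tested.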

How the results depend on the processing

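The long-arm median stayed below 0 in every alternative run. It was -0.51 over 197 genes at a mean of 5 CPM or more, -0.51 without the count filter and between -0.52 and -0.48 with 1 library left out. The short-arm median was -0.046 without the filter and between -0.027 and 0.045 with 1 library left out. The long-arm share past the threshold as lower was 68.0% at 5 CPM or more, 50% without the filter, 51.7% with DESeq2 and between 46.8% and 63.8% with 1 library left out. Genes past the threshold as higher numbered between 22 (without control replicate 1) and 47 with 1 library left out, against 34 with all, and lower ones between 121 and 171. The cause was not tested. Shares over all tested genes under the same settings are not given here, and the 21.6% lower of the main fit is not their background. The size of these shares and counts is therefore not read. In the group comparison 0 genes of chromosome 20 passed under any alternative. With the title number as a replicate block, 8 of all genes passed (501 at an unadjusted p under 0.05), and 6 of chromosome 20 had an unadjusted p under 0.05. Deviations of same-numbered libraries correlated at 0.872 over 16343 genes, but the labels do not say what the number marks. Among named genes, NNAT, NOP56 and RPN2 lost their call with 1 library left out and SLPI with DESeq2 (adjusted p = 0.141).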
